A study of Mus musculus with 11 samples.

Results

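Regions of the mouse genome that carried a peak in 4 or more of 6 Myc-tag CUT&RUN libraries are described here. The 6 peak lists were merged wherever peaks shared at least 1 base on chromosomes 1 to 19 and X, which gave 805192 merged regions. Of these, 4682 overlapped a peak in at least 4 libraries, or 0.581% of all merged regions, and they are called shared regions below and members in the figures. They were thus chosen by the presence of peaks, so their number of libraries, widths and heights are described without tests. The one exception is a comparison of heights between the genotypes in regions called in all 6 libraries, since the choice did not use which genotype is higher. CUT&RUN uses an antibody to bring a nuclease to a protein on chromatin, so that the DNA around the protein is cut out and sequenced. The protein was Myc-tagged RARα, the alpha form of the retinoic acid receptor, and the cells were cortical progenitors of E14 mouse embryos, enriched on beads by Prom1, which neural progenitors carry at their surface. The lists come from 3 control and 3 Foxc1 mutant libraries. The labels name the genotypes only as control and Foxc1 mutant, and give neither the alleles nor the construct that carries the tag. Both groups were treated with the same antibody and permeabilised with 0.05% digitonin. The 5 isotype libraries of the series were not analysed here, so no background from them stands beside the values. No label says that replicates came from separate embryos, and p-values therefore measure only the spread between these libraries. Peak lists hold no expression values, so the labelled cell type could not be checked against its markers.

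RARα binds DNA as a partner of a retinoid X receptor, at pairs of a short hexamer set in direct repeat, and switches from holding corepressors to holding coactivators when retinoic acid binds. Retinoic acid made by the meninges reaches the developing cortex, and Foxc1, a transcription factor of meningeal cells, is needed for the meninges to form. SEACR, the peak caller, joins stretches of signal into blocks and reports for each block a total signal and a max signal.

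The 6 lists differed in length and in the width of their peaks, and this bears on every count that follows. The 3 control lists, by replicate number, held 86444, 11709 and 30054 peaks on these chromosomes, and the 3 mutant lists held 54091, 410453 and 513260. The peaks of control replicate 1 had a median width of 2327 bp, against 303 and 259 bp in control replicates 2 and 3 and 679, 736 and 737 bp in the mutant libraries. Peaks covered 8.36%, 0.151% and 0.334% of the chromosome span in the control libraries and 1.51%, 12.7% and 16.2% in the mutant libraries. No read numbers were given, so depth is unknown. Heights are given in steps, the smallest unit of max signal in a library. In the authors' signal, a step is worth 0.0500, 0.168 and 0.333 in the control lists. It is worth 0.147, 0.450 and 1.63 in the mutant lists, so a height in steps is compared only within a library.

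To show the DNA at some of these regions, the stretches before gene starts that peaks of 4 libraries touched and that lie outside every annotated gene are printed first. There were 5, each read 5′ to 3′ on the strand of its gene from RefSeq (GRCm38.p6, the assembly behind mm10), with the 250 bases just before the start site. Capitals mark the hexamer AGGTCA, or AGTTCA, or GGGTCA, or GGTTCA, which are forms of the element that retinoic acid receptors bind, or a reverse complement of one. In all 5 the touching libraries were control replicate 1 and the 3 mutant libraries.
Chil4: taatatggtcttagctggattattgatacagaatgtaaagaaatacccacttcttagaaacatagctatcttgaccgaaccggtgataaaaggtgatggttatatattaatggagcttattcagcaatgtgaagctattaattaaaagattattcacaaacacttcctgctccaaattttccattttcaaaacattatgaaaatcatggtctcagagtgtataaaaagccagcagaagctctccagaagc
Cks2: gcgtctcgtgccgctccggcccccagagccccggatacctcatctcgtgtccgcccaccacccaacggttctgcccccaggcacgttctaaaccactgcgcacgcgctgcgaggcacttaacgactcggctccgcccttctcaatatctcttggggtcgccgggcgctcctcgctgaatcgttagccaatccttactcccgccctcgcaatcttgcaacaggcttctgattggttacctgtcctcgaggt
Pate7: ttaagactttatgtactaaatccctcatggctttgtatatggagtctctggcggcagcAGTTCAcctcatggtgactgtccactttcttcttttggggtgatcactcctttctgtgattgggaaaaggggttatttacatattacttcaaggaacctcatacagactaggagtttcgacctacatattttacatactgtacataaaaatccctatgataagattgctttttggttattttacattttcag
Olfr917: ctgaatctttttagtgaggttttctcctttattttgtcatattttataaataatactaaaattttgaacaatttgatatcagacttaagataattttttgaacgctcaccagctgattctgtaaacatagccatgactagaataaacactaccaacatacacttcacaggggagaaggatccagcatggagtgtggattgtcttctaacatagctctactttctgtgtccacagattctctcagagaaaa
Gm1976: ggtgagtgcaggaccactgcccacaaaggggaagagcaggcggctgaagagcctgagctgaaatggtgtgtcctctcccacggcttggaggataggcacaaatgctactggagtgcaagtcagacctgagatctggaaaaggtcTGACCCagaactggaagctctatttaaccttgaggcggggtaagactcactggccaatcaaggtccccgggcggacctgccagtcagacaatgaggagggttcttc

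The Chil4 stretch (chr3:106219480-106219729, minus strand) was covered from end to end in 4 libraries, at 14 steps in control replicate 1 and at 4, 3 and 6 in the mutant libraries. Chil4 encodes a chitinase-like protein. The stretch before Cks2, which encodes a small subunit of cyclin-dependent kinases (chr13:51644982-51645231, plus strand), was covered whole in 2 libraries and touched in 4, at 12, 4, 5 and 6 steps in the same order. Those before Pate7 (chr9:35778110-35778359, minus), Olfr917, an olfactory receptor gene (chr9:38665843-38666092, minus), and Gm1976 (chr17:94834800-94835049, minus) were touched at 7 to 11 steps in control replicate 1 and at 4 to 11 steps in the mutant libraries. None of the 5 had a peak of control replicate 2 or 3.

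These hexamers were about as common before starts that shared regions touched as before all starts. Of 32619 annotated starts, 292 were touched by a shared region, which is 0.895%. At least 1 of the 4 hexamers, on either strand and counted where they overlap, stood in the 250 bases of 38.0% of these 292 starts and of 38.7% of all starts. Direct repeats of these hexamers with 1, 2 or 5 bases between them, the forms known as DR1, DR2 and DR5, were found before 0.166%, 0.175% and 0.0889% of all starts and before 0 of the 292. Pate7 and Gm1976 had 1 hexamer each, and Chil4, Cks2 and Olfr917 had 0. A match is a description of letters in this window only.

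Shared regions touched 7 of 1005 miRNA hairpins (0.697%), and a pair of these is shown because they lie together at a gene described later, Mcm7. The 5p strands of Mir93 and Mir106b have the same seed, bases 2 to 8, in capitals (RefSeq).
mmu-miR-93-5p: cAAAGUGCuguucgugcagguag
mmu-miR-106b-5p: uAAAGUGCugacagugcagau
At both hairpins (chr5:138165523-138165610 and chr5:138165737-138165818, minus strand) control replicate 1 alone had a peak, and the 3 mutant libraries joined the region further along. The region began at chr5:138165605, so at Mir93 it touched only the edge of the hairpin, up to 138165610.

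Most shared regions joined the same 4 libraries. Control replicate 1 with all 3 mutant libraries made up 2721 of the 4682, or 58.1%. Control replicates 1 and 3 with mutant replicates 2 and 3 made up 888, and control replicates 1 and 2 with the same mutant libraries made up 327. Of the 22 possible sets of 4 or more libraries, 21 occurred, and the one that did not was the 3 control libraries with mutant replicate 1. Single libraries took part very unequally. Mutant replicate 3 had a peak in 98.4% of the shared regions, mutant replicate 2 in 97.1%, control replicate 1 in 93.0% and mutant replicate 1 in 69.2%, while control replicates 3 and 2 had one in 31.7% and 15.5%. This order is also the order of the covered length. All 3 mutant libraries were present in 3090 shared regions and all 3 control libraries in 119. These shares are fixed by the lists that the choice of regions used, so no test was made on them.

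**Figure D1:**
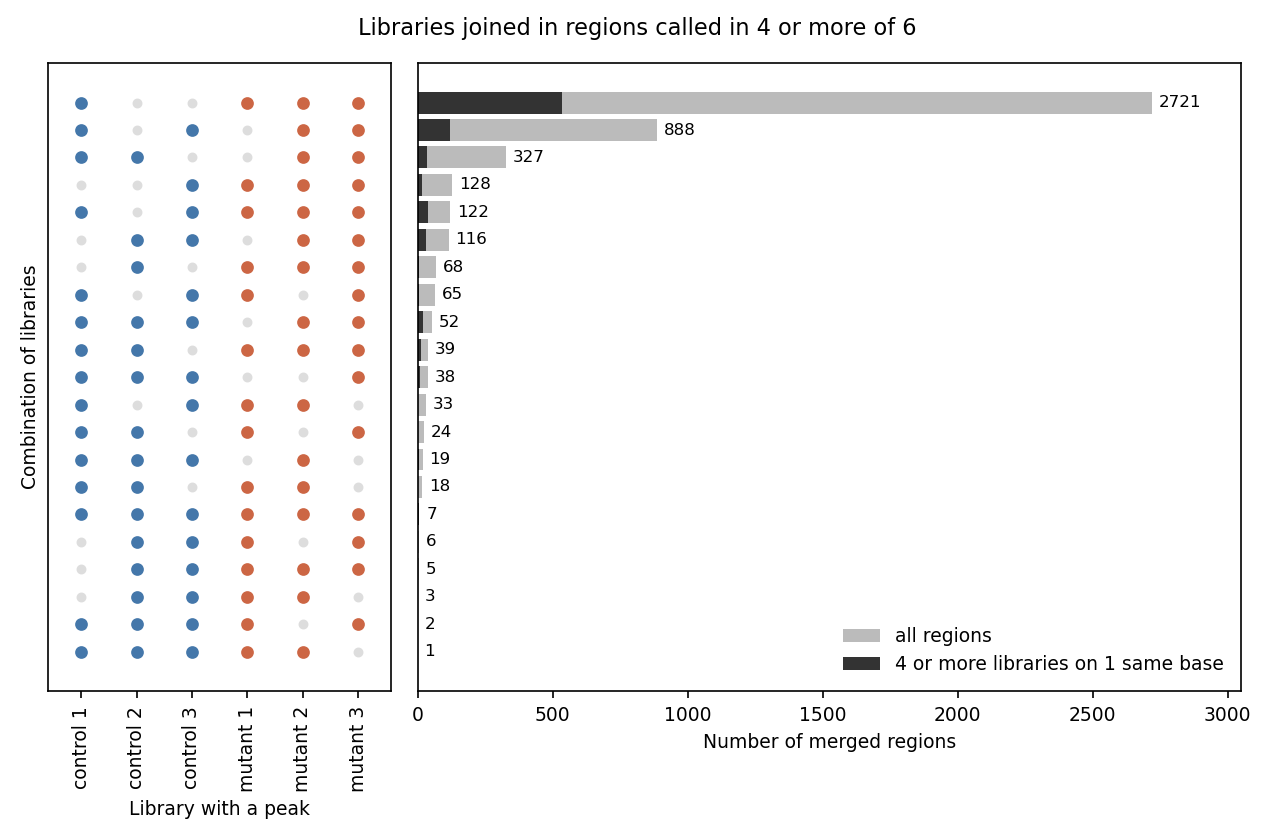
Sets of libraries joined in the 4682 shared regions; dots on the left mark the libraries with a peak (blue control, orange mutant), and bars give the number of regions on a linear scale, with the dark part for regions where 4 or more libraries covered 1 same base. The top set, control replicate 1 with the 3 mutant libraries, holds 2721 regions, of which 536 are dark.

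In 81.8% of shared regions no single base was covered by 4 libraries. The regions were built from peaks that overlap in a chain, and the highest number of libraries on 1 base was 2 in 860 regions, 3 in 2971, 4 in 840 and 5 in 11. Thus 851 shared regions, or 18.2%, had 4 or more libraries on a base, and 0 had all 6. In the set of control replicate 1 with the 3 mutant libraries 536 regions, or 19.7%, did so. A shared region was 3448.5 bp wide at the median (quartiles 2788 and 4405.5) and held 5 peaks at the median and at most 47. Control replicate 1, with its wide peaks, covered a mean of 73.1% of the length of a shared region and was the library that covered most of it in 83.3% of cases. Mutant replicates 3 and 2 covered 36.6% and 32.9% on average, mutant replicate 1 covered 15.7%, and control replicates 3 and 2 covered 3.32% and 2.10%.

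The number of shared regions depended on single libraries. With control replicate 1 left out, 390 regions had 4 of the remaining 5 libraries, and with mutant replicate 1, 2 or 3 left out there were 1597, 325 and 261. Leaving out control replicate 2 or 3 gave 4060 and 3380. With both of these left out, 2887 regions had all 4 remaining libraries. With every list shortened to its 11709 peaks of largest total signal, 21 regions were left.

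Shared regions were wider than the rest, and their heights were nearly the same. Regions called in exactly 3 libraries, just outside the rule, numbered 37599 and were 2759 bp wide at the median, those in exactly 4 libraries numbered 4454 and were 3436.5 bp wide, and the 221 in 5 and 7 in 6 libraries were 3874 and 5068 bp wide. Width grows with the number of peaks merged, so this order is built in. The highest peak of a region had a median of 10 steps in control replicate 1, 2 steps in the other control lists and 4 steps in mutant replicates 1 and 2, both in regions of exactly 3 and of exactly 4 libraries. Only mutant replicate 3 differed, with 4 and 5 steps. Single peaks inside and outside shared regions had equal medians in every library, of 10, 2 and 2 steps in the control lists and 4 steps in each mutant list. Across shared regions the heights of 2 libraries went together weakly at most. Spearman's rho lay between -0.09 and 0.07 over the 15 pairs of libraries, with 173 to 4473 regions per pair. These points share the library and, in part, neighbouring sequence.

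Some tall peaks lay in shared regions and others did not. The tallest peak inside shared regions had 248 steps in control replicate 1 and 300, 92 and 80 in the mutant libraries, and the tallest outside them had 38 and 246, 309 and 267 in the same order. In 13 shared regions at least 2 libraries reached 20 steps, and in 10 of them 4 libraries covered 1 same base, against 851 of the 4682. This mark is not alike across libraries, with medians of 10 steps in control replicate 1 and 4 in the mutant lists. Control replicates 2 and 3 could not reach it, since their tallest peaks in shared regions had 7 and 8 steps. None of the 13 lay within 1 kb of a gene end with any part. Among all shared regions the middle of 3.44% lay there, but this share counts middles and not any part. The share with any part there was not counted, so none in 13 regions is not read as setting them apart. Of the 13, 11 joined control replicate 1 with the 3 mutant libraries. The tallest inside shared regions was at the same place in these 4 libraries, on chromosome 18 (chr18:68691833-68694644), 262513 bp from Mc2r, the receptor for adrenocorticotropic hormone. Inside Jarid2, which encodes a subunit of Polycomb complexes (chr13:44869419-44871137), the heights were 111, 179, 36 and 27 steps in the same order, and inside Gphn, which encodes the synaptic scaffold gephyrin (chr12:78350485-78351456), they were 84, 58, 34 and 33. All 4 libraries were thus far above their medians at these 3 places, while control replicates 2 and 3 had no peak there. On chromosome X, 34492 bp from the kinase gene Pak3 (chrX:143482800-143483874), there were 219 steps in control replicate 1 and 28, 71 and 66 in the mutant libraries. Near the start of the assembled chromosome 9, 4 of the 13 regions had Alkbh8 as the nearest gene, at 309358 to 327625 bp. The one at chr9:3023095-3023958 had 164, 27, 38 and 47 steps, and the one at chr9:3006691-3007606 had no peak in control replicate 1, 3 steps in control replicate 3 and 43, 53 and 51 steps in the mutant libraries. These heights are values of the same peaks that chose the regions and carry no test.

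**Figure D2:**
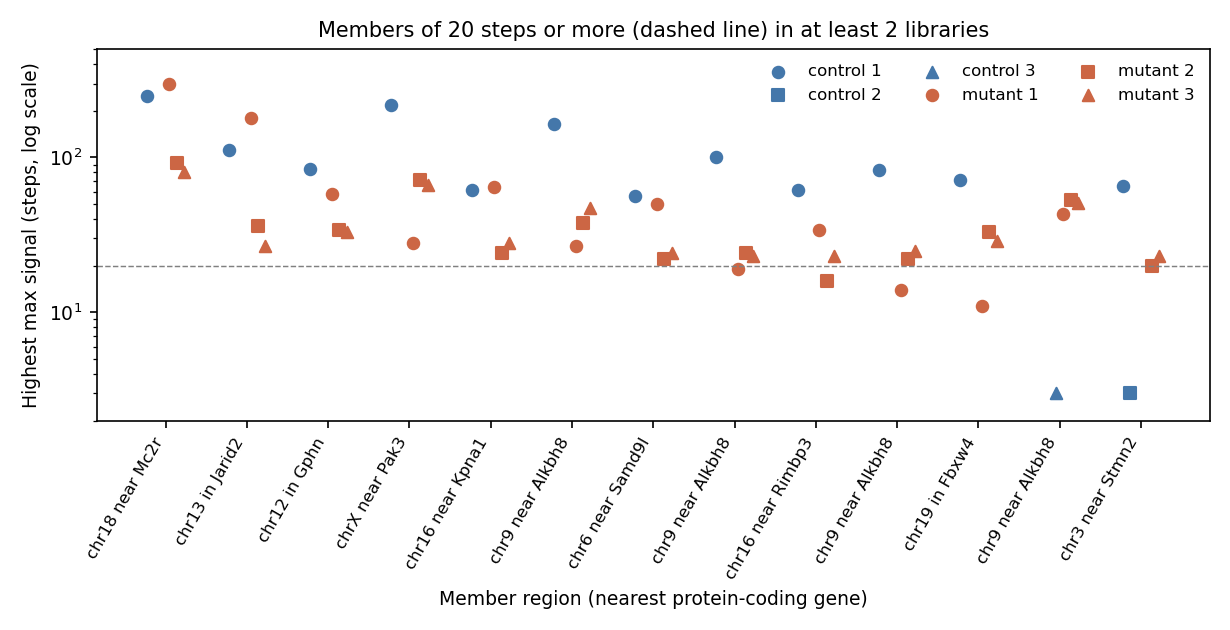
Highest max signal, in steps of each library on a log axis, in the 13 shared regions where at least 2 libraries reached 20 steps (dashed line); each mark is 1 library (blue control, orange mutant). A step has another worth in each library, so marks of different libraries cannot be ranked against each other. Control replicates 2 and 3 appear in 1 region each, at 3 steps.

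The 7 regions called in all 6 libraries were at most 11 steps high, and none of them passed the test between genotypes. The one near Gm6712, a predicted gene it overlaps (chr17:17297506-17303696), had 10, 4 and 2 steps in the control libraries, by replicate number, and 6, 6 and 3 in the mutant libraries. The one on chromosome 6 (chr6:5531387-5538711), 35109 bp from Pdk4, a kinase that restrains pyruvate dehydrogenase, had 6, 2 and 2 steps in the control lists and 4, 5 and 6 in the mutant lists. Inside Agbl1, a carboxypeptidase gene (chr7:76869932-76876459), there were 11, 2 and 2 steps in the control lists and 4, 5 and 3 in the mutant lists. In these 3 regions control replicate 3 had 2 steps, and control replicate 2 had 2 or 4. On chromosome 2 (chr2:81316102-81318255), 656031 bp from Nup35, a nuclear pore gene, there were 10, 3 and 2 steps in the control lists and 5, 2 and 3 in the mutant lists. Near the deubiquitinase gene Usp17le (7379 bp away, chr7:104756544-104760582) the heights were 8, 2 and 2 in the control lists and 3, 5 and 4 in the mutant lists. The last 2 were near Fgf10, a growth factor gene (60050 bp away, chr13:118852623-118857690), with 7, 2, 2, 4, 4 and 4 steps, and over the predicted gene Gm9222 (chr12:17932129-17935336), with 8, 2, 2, 4, 3 and 4 steps in the order above. Of the 7, 3 overlapped a protein-coding gene, and the regions over Gm6712 and Gm9222 lay within 5 kb of a gene end.

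Even here no base was covered in all 6 libraries. The number on the best covered base was 5 near Usp17le, 4 in the regions near Nup35 and over Gm6712 and Gm9222, 3 near Pdk4 and Fgf10 and 2 in Agbl1. Near Usp17le, control replicates 2 and 3 and the 3 mutant libraries shared 131 bp (chr7:104759853-104759983), while the peak of control replicate 1 ended before it. A limma fit used log2 max signal of the tallest peak, after subtracting the median of each library over these regions, and 0 of the 7 passed an adjusted p of 0.05 in either direction (0%), and 0 had an unadjusted p of 0.05 or less. The difference with the smallest p was near Nup35, with -0.77 ± 0.38 (SE, log2, mutant minus control, 3 libraries each, limma adjusted p = 0.463). Near Pdk4 it was 0.33 ± 0.23 (limma adjusted p = 0.463). With 7 regions and heights of a few steps, differences of this size could not be told from the spread between libraries. Control replicate 3 had 2 steps in each of the 7 regions, so its heights held no spread. In control replicates 2 and 3, 93.2% and 93.3% of all peaks had 3 steps or less, so these lists carried little information on height.

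**Figure D3:**
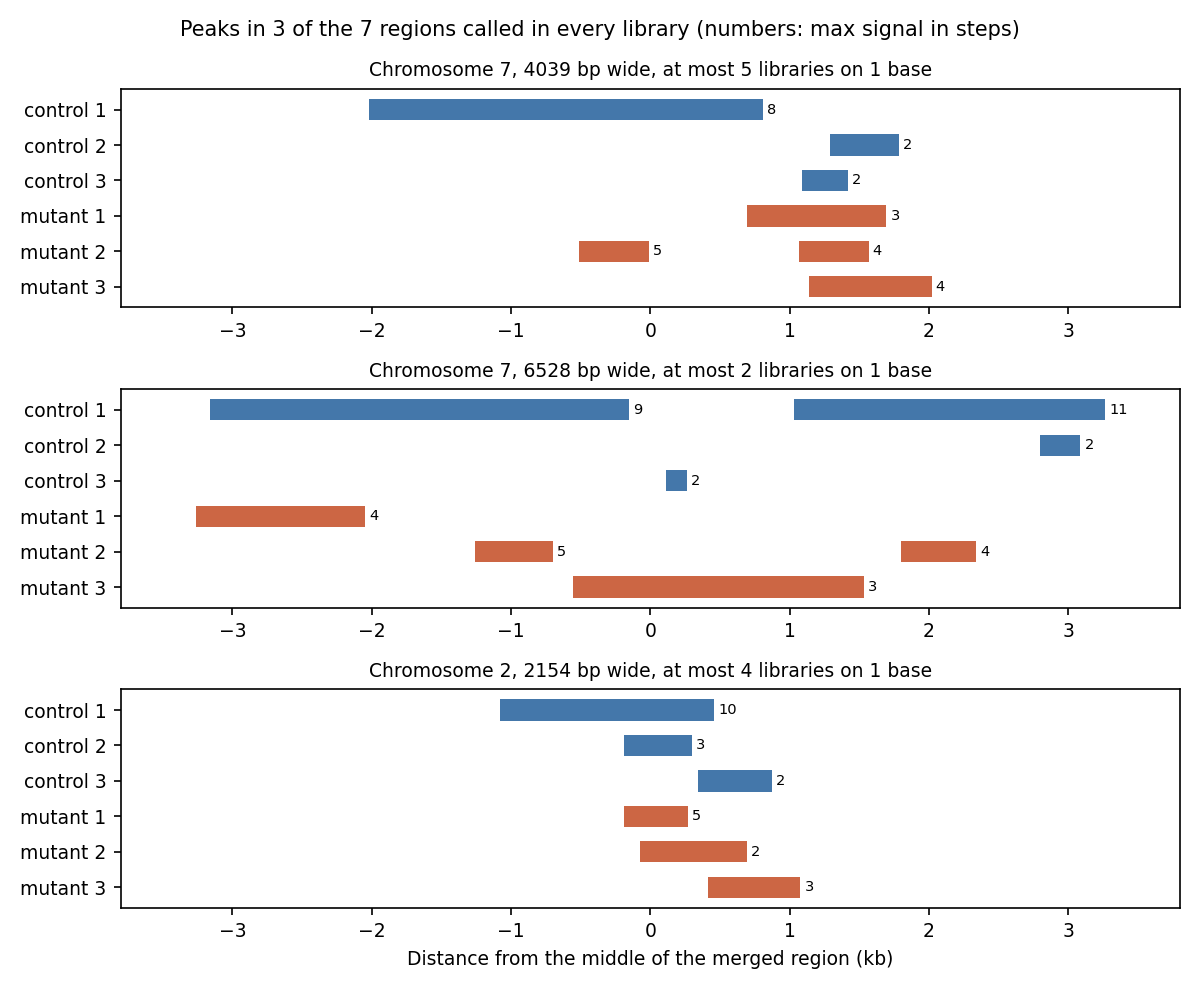
Peaks of each library (rows; blue control, orange mutant) in 3 of the 7 regions called in every library, by distance in kb from the middle of the merged region, with the max signal in steps beside each bar. In the top panel 5 libraries overlap on 131 bp, in the middle panel at most 2 libraries share a base, and in the bottom panel at most 4 do.

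The 11 regions with 5 libraries on 1 base included the one near Usp17le and 10 that were called in 5 libraries. Mutant replicate 1 had no peak in 6 of the 10. At Ralyl, an RNA-binding protein gene (chr3:14179653-14182592), the only one of the 11 within 1 kb of a gene end, the heights were 17 and 2 steps in control replicates 1 and 2 and 6, 6 and 7 in the mutant libraries, with 54 bp shared. Inside Fstl5, a follistatin-like gene (chr3:76431597-76434630), they were 10, 2, 5, 7 and 4 steps in the same libraries, with 317 bp shared. Inside Cfap97, a cilia gene (chr8:46171320-46173417), they were 17, 3, 3, 4 and 3, with 69 bp shared. Regions inside genes also lay in Itpr1, the calcium release channel of the endoplasmic reticulum (8, 3 and 2 steps in control, 5 and 5 in mutant replicates 2 and 3, with 309 bp shared), and in Kcnma1, a potassium channel (8, 2 and 2 in control, 2 and 4 in mutant replicates 2 and 3, with 81 bp shared). Ubl3, Enthd1 and the pair Cyp2c38 and Cyp2c39 held others, and 2 more lay 28953 bp from Gata2 and 502107 bp from Aga. The shared stretches ran from 15 to 317 bp.

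Shared regions lay in and between genes in nearly the same proportions as all merged regions. The middle of 42.5% lay inside a protein-coding gene, against 42.9% of regions called in exactly 3 libraries and 41.0% of those called in 1 or 2. For the 851 regions with 4 or more libraries on 1 base the share was 41.8%. The middle of 161 shared regions, or 3.44%, lay within 1 kb of a gene end, against 3.70% of the regions called in exactly 3 libraries and 2.97% of those in 1 or 2. Within 5 kb it was 13.8%, 13.1% and 11.8%.

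The position of single peaks relative to genes was compared in each library between peaks in shared regions and all its other peaks, by the middle of the stretch of max signal. Within 1 kb of a gene end lay 3.85%, 2.60% and 2.57% of the peaks in shared regions in the control lists, by replicate number, against 3.86%, 2.15% and 2.24% of the other peaks. In the mutant lists it was 4.33%, 3.54% and 3.97% in shared regions against 2.99%, 2.76% and 3.35%. The share was higher in shared regions in 5 of 6 libraries, by 0.587 ± 0.457 percentage points on average (SD, n = 6), and this did not pass 0.05 in a two-sided exact sign-flip permutation test (p = 0.0625, where the smallest possible is 0.03125). When any overlap of the peak with the window was counted, the difference was 0.849 in 6 of 6 libraries (exact permutation p = 0.03125), and peaks in shared regions are wider in every library. A shared region gives peaks to at least 4 of the 6 libraries, so the 6 differences rest partly on the same regions. The sign-flip tests here treat them as independent, so their p-values can be too small. Inside protein-coding genes lay 42.5%, 42.7% and 41.3% of the peaks in shared regions in the control lists and 42.4%, 42.4% and 43.1% in the mutant lists. The other peaks gave 43.2%, 37.8% and 37.5% in the control lists and 40.8%, 40.7% and 42.1% in the mutant lists (mean difference 2.07 ± 2.04, exact permutation p = 0.0625, a comparison added after the values were seen).

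With 3 libraries against 3 the smallest p that the exact permutation test can give is 0.1, so no comparison of the genotypes here could pass 0.05. The share of peaks in shared regions within 1 kb of a gene end averaged 3.01% ± 0.731 over the control and 3.95% ± 0.394 over the mutant libraries (SD, n = 3 each), a difference of 0.942 percentage points (two-sided exact permutation p = 0.2). Within 5 kb the values of the genotypes did not overlap, but the choice of regions bears on this. All 3 mutant libraries were present in 3090 of the 4682 shared regions, so their shares rest largely on the same regions. Control replicates 2 and 3 had a peak in only 15.5% and 31.7% of shared regions, while control replicate 1 had one in 93.0%. The control libraries had 14.2%, 10% and 11.8% and the mutant libraries 15.1%, 14.8% and 14.7% (difference 2.85, exact permutation p = 0.1). The other peaks gave 14.7%, 11.0% and 10.8% in the control lists and 12.3%, 11.7% and 11.8% in the mutant lists. Control replicate 1 thus had the highest share among other peaks, close to that of mutant peaks in shared regions. What its presence in most shared regions adds to the genotype values was not tested. Against the other peaks of the same library, the difference was -0.51, -1.003 and 1.03 percentage points in the control libraries, and 2.79, 3.07 and 2.88 in the mutant libraries. The difference between the genotypes in this contrast was 3.07 percentage points (exact permutation p = 0.1). Comparing the genotypes in this contrast was not among the planned tests, here or within 1 kb. In the same contrast within 1 kb the values were -0.00675, 0.453 and 0.325 in the control libraries and 1.34, 0.787 and 0.623 in the mutant libraries. These did not overlap either (difference 0.659, exact permutation p = 0.1), and the same limit holds.

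**Figure D4:**
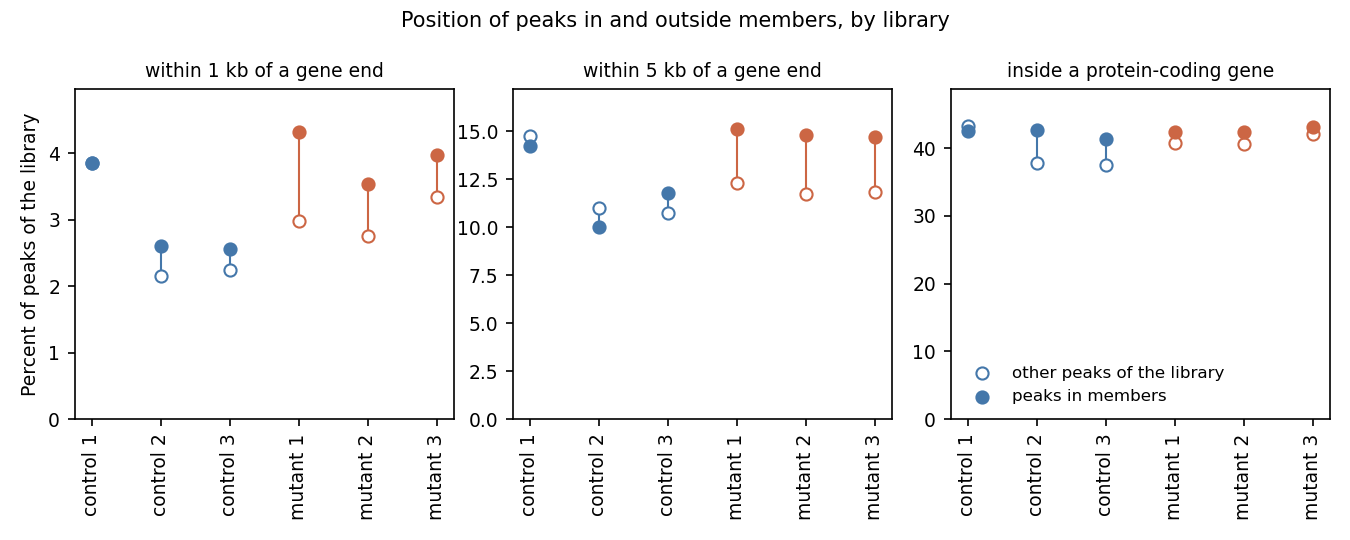
Percent of the peaks of each library that lie within 1 kb of a gene end, within 5 kb of one, or inside a protein-coding gene, for peaks in shared regions (filled) and all other peaks (open), blue control and orange mutant, from 0 on a linear axis. Filled marks lie above open ones in 5 of 6 libraries in the left and right panels, and in all 3 mutant libraries but 1 of 3 control libraries in the middle panel.

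Of 21631 protein-coding genes, 1011 (4.67%) had a shared region within 5 kb of an end, and 507 (2.34%) within 1 kb. Among 22 genes of the retinoic acid pathway 3 had one within 5 kb, or 13.6%. Rdh10 makes retinaldehyde from retinol, and its region (chr1:16104208-16111103) overlapped 5222 bp of the gene and also lay at the ribosomal protein gene Rpl7, with 8 steps in control replicate 1, 3, 4 and 7 in the mutant libraries, and 4 libraries on 1 base. Rarb is a retinoic acid receptor that is itself a classical target of retinoic acid. Its region (chr14:16424032-16427345) lay 3494 bp beyond the end of the gene and 148131 bp from its nearest annotated start, with 6, 4, 4 and 6 steps in the same libraries. Rxrb encodes a partner receptor, and its region (chr17:34026693-34029375) ended 2437 bp before the nearest start, with 13, 4, 4 and 5 steps and at most 2 libraries on a base. None of the 3 had a peak in control replicates 2 or 3. Further shared regions lay inside Aldh1a3, an enzyme that makes retinoic acid, and Ncor1, a corepressor of the receptors. With Rdh10, that made 3 of 22 genes with one in the span (13.6%), against 7.9% of all genes. The genes of this list had a median length of 36131 bp, against 17329 bp for all genes. Only Rdh10 had a region within 1 kb of an end, and no test was made on the list.

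Among 36 Notch pathway genes 2 had a shared region within 5 kb of an end (5.56%). At Maml2, a coactivator of Notch, the region (chr9:13296813-13301476) held an annotated start and had 8 steps in control replicate 1 and 5 steps in each mutant library. At Adam10, a protease that cuts Notch, the region (chr9:70681877-70684755) lay inside the gene 2895 bp from the start, with 14, 4, 3 and 2 steps. Counting the whole gene span, which a shared region touched in 7.9% of all protein-coding genes, raised the number to 5, with Notch2, Maml3 and Dtx1. The region in Notch2, a Notch receptor, is the one with another set of libraries, with 10 steps in control replicate 1, 3 in control replicate 2 and 5 each in mutant replicates 2 and 3.

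Of the 19 Sox genes, 21 radial glia genes and 22 neurogenesis genes, 0 had a shared region within 5 kb of an end, against 4.67% of all genes, and no test was made on the lists. Within the gene span 2 Sox genes (10.5%), 1 radial glia gene (4.76%) and 1 neurogenesis gene (4.55%) had one, against 7.9% of all genes. There were 2 regions in Sox5, 1 in Sox6, 1 in Ptprz1, a phosphatase of radial glia, and 3 in Map2, a microtubule protein of dendrites. One of those in Map2 (chr1:66204088-66208140) had 17 steps in control replicate 1, 2 in control replicate 3, and 5 and 7 in mutant replicates 2 and 3, with 4 libraries on 1 base. These 4 genes are 177602 to 953863 bp long.

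Among cell cycle and housekeeping genes 1 of 22 (4.55%) and 1 of 24 (4.17%) had a shared region within 5 kb of an end, near the 4.67% of all genes. At Mcm7, a subunit of the helicase that opens replication origins, the region (chr5:138165605-138174444) held the annotated starts of Mcm7 and of its divergent neighbour Ap4m1, with 17 steps in control replicate 1 and 5, 4 and 6 in the mutant libraries. At Ywhaz, a 14-3-3 protein gene, there were 2 regions in the same libraries. The one within 1 kb of the gene end (chr15:36769255-36772064) had 8, 4, 5 and 5 steps, and the one further inside (chr15:36774456-36778739) had 10, 5, 4 and 4. Markers of the other cell types a cortical sample can hold had 0 genes with a shared region within 5 kb of an end. The lists held 16 genes of meningeal fibroblasts, 14 of vessels, 12 of microglia, 12 of ventral interneurons and 11 of erythroid cells. Over all genes the share was 4.67%, so 0 in lists this short lies near it, and no test was made. These counts do not show which cells the sample held. In the gene span, the interneuron list had 1 gene with a region (8.33%), against 7.9% of all genes, and the other 4 lists had 0. It was Gad2, which makes the transmitter GABA (chr2:22680647-22687837), with 9 steps in control replicate 1 and 5 in each mutant library.

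Some gene families that stand in clusters had a share further from the 4.67% of all genes. Clustered protocadherins, adhesion proteins of neurons, had a shared region within 5 kb of an end in 13 of 57 genes (22.8%), vomeronasal receptors in 43 of 355 (12.1%) and zinc finger genes named Zfp in 43 of 397 (10.8%). Olfactory receptors gave 66 of 1110 (5.95%), ribosomal proteins 5 of 97 (5.15%) and histone genes 1 of 81 (1.23%). Genes of a cluster share regions, as the 13 protocadherin calls came from at most 9 regions, and no test was made on the families. The zinc finger cluster on chromosome 4 (chr4:146910515-147827579) held 8 regions, all 8 of control replicate 1 with the 3 mutant libraries, and 5 of them had 4 libraries on 1 base. Counting only regions in or within 5 kb of a vomeronasal receptor gene and joining those less than 500 kb apart, the largest vomeronasal cluster (chr17:20212844-20685865) also held 8, all of that set, and 1 had 4 libraries on 1 base.

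The widest shared regions lay beside the chitinase-like genes of chromosome 3. The widest of all covered 41791 bp (chr3:106207789-106249579) and took in the start of Chil4 whose sequence is printed above, with 47 peaks, of which 5 were from control replicate 1 and 3, 19 and 20 from the mutant libraries. Its tallest peaks were 18, 5, 8 and 9 steps high. The next one, of 20118 bp (chr3:106187385-106207502), also overlapped Chil4, at 15, 4, 8 and 9 steps, and another of 16175 bp (chr3:106291464-106307638) lay 71985 bp from the gene, at 16, 4, 6 and 8 steps. The remaining 2 of the 5 widest were 18529 bp on chromosome 4 (chr4:122013260-122031788), at 15, 3, 7 and 6 steps, and 17171 bp over the olfactory receptor gene Olfr342 (chr2:36526183-36543353), at 14, 4, 6 and 5 steps. All 5 joined control replicate 1 with the 3 mutant libraries. Among shared regions within 1 kb of a gene end, those at Prl2c3, a prolactin family gene (chr13:12797316-12799606), Zfp978 (chr4:147389865-147392719) and Sult2a7, a sulfotransferase gene (chr7:14491367-14499773), stood with Ralyl and Chil4 at the top by libraries on 1 base and rank of height. They had 13, 7, 9 and 9 steps, 19, 5, 9 and 7 steps, and 13, 5, 8 and 6 steps in control replicate 1 and the mutant libraries.

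In lists of equal length 21 regions reached 4 libraries. The shortened lists are parts of the full ones, so each of these had to lie in a shared region. In 13 of them the set was again control replicate 1 with the 3 mutant libraries, and in 4 it was the 3 control libraries with mutant replicate 2. In the full lists mutant replicate 3 also had a peak in each of these 4. They included the tall regions near Mc2r and Pak3 and inside Gphn, the stretch at the start of chromosome 9 without a peak of control replicate 1, and both regions at Prl2c3. Near the predicted gene Gm7592 on chromosome 1 there were 2, of which one (chr1:85321894-85324148) had 32, 9, 17 and 16 steps. Those of the 3 control libraries with mutant replicate 2 were low in control replicates 2 and 3, as at 118298 bp from Sp3 (chr2:72813808-72818132), with 13, 2 and 5 steps in control and 8 in mutant replicate 2.

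The genes that took in the most regions outside the protocadherin span were long. Cntnap2, a neurexin-like adhesion protein, held 9, Ptprd, a synaptic phosphatase, held 8, and Cadm2, Lsamp and Macrod2 held 7 each. Genes with a shared region in their span numbered 1708 and had a median length of 87.7 kb, against 15.7 kb for the others. Regions less than 50 kb apart formed 495 runs of at least 2, which held 24.1% of all shared regions. The run with the most, 10 regions (chr17:19151477-19405638), lay at the vomeronasal receptor gene Vmn2r99, and 8 regions lay across the Pcdha genes (chr18:36882470-37068536).

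Chromosome X held few shared regions. It had 53, or 0.316 per Mb, against 1.49 to 2.43 per Mb on the autosomes, where chromosome 11 was lowest and chromosome 17 highest. Of the merged regions on X, 0.144% were shared, against 0.482% to 0.779% on the autosomes. Of all peaks, 2.23%, 6.17% and 9.76% lay on X in the control lists, by replicate number, and 3.90%, 3.91% and 3.93% in the mutant lists. Control replicate 1, which took part in 93.0% of shared regions, had the lowest share, and its part in the low number on X was not tested.

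**Figure D5:**
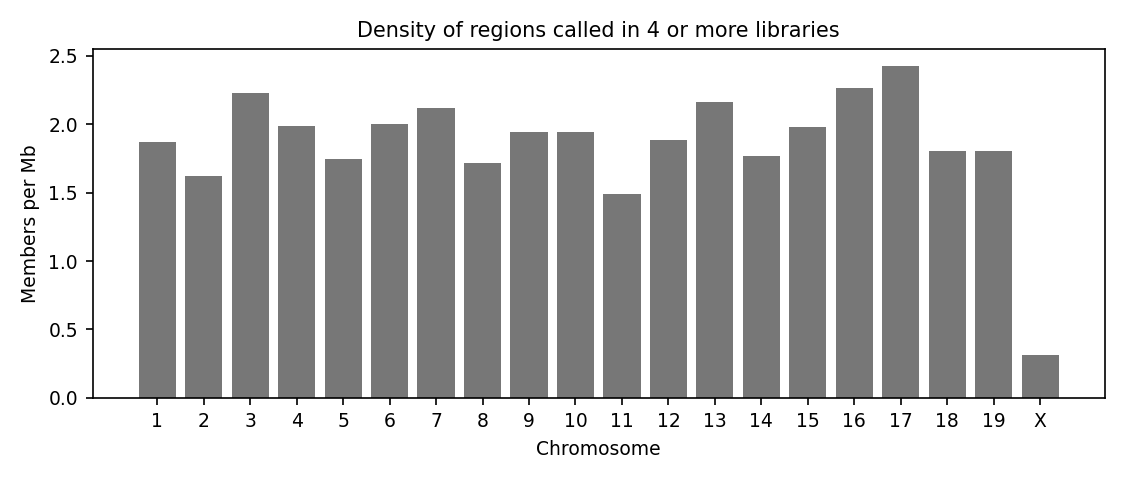
Shared regions per Mb on each chromosome (bars, linear axis from 0). The autosomes lie between 1.49 and 2.43 per Mb and X at 0.316 per Mb.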

How the data were processed

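CUT&RUN peaks for Myc-tagged RARα were analysed in 3 control and 3 Foxc1 mutant libraries of Prom1-enriched E14 cortical cells, grouped and numbered by title. SEACR and mm10 are named per the submitters' processing notes. SEACR's version, threshold and control, the aligner, read filters and scaling: not given in the sources used here.

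A deposited list holds 1 library's peaks with the authors' total signal and max signal, and the depth behind them is unknown. Low max signals were whole multiples of 1 step per library (tolerance 0.01 of a step).

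Peaks on chromosomes 1 to 19 and X were merged from 1 bp of overlap (Python 3.11.15, pandas 2.3.3), and regions in at least 4 libraries were kept. Genes (21631, protein-coding) and promoters came from RefSeq tables of GRCm38.p6. Gene lists were counted within 5 kb of either gene end, and families were matched by symbol. Regions in all 6 libraries were compared with limma 3.58.1 (trend, no block, Benjamini-Hochberg adjustment), and shares with exact permutation tests over libraries. Merging and limma were tested on simulated data.

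Named were the regions in all 6 libraries, the 5 widest, the 5 at gene ends by libraries on 1 base and rank, the 6 of smallest p, the largest cluster per family and up to 4 genes per list with a region. Other names, such as tall regions, genes with a region inside and regions of 5 libraries on 1 base, were chosen after their values were seen. Regions and lists were chosen with earlier results of these data known. Alternatives were other windows, positions, widths, list lengths, normalizations and values, a replicate block and leaving out libraries. Leaving out control replicates 2 and 3 together was added after seeing the data.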

Additional observations from a re-analysis of the deposited data

How the results depend on the processing

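The number of shared regions, 4682, stayed within 1.5 times without peaks wider than 5 kb (4370) and without peaks of 2 steps or less (3201). It was 851 with 4 libraries required on 1 same base, 21 with lists of equal length, 2887 with control replicates 2 and 3 left out together, and 261 to 4060 with 1 library left out, where 4 of 5 libraries were still required. Genes with a region within 5 kb of an end went from 1011 to 185, 2 and 703 in the first 3 of these settings and to 50 to 924 with 1 library left out.

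In limma 0 regions passed under all 12 alternatives that could be fitted, with 3 to 129 regions tested, including the replicate block (smallest adjusted p = 0.149, against 0.463 without it). No region had 1 base covered in all 6 libraries, so that alternative gave no value. No log2 difference had passed, and signs turned easily. With total signal they were -0.0768 near Pdk4, 0.47 in Agbl1, 0.23 over Gm9222 and 0.0453 near Usp17le, and with mean signal per covered base 0.25 over Gm9222 and 0.14 near Usp17le. With quantile normalization the value over Gm6712 was 0.0429, and with regions under 5 kb alone that near Usp17le was 0.11. With 1 library left out they ran from -0.25 to 0.00789 in Agbl1, -0.13 to 0.27 near Usp17le, -0.29 to 0.11 over Gm9222, -0.32 to 0.14 over Gm6712, 0.22 to 0.70 near Pdk4 and -0.90 to -0.24 near Nup35.

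The mean gene end share of peaks in shared regions minus other peaks kept its sign in all 11 alternatives, from 0.125 (250 bp window) to 1.38 (5 kb window). With all 6 libraries, it passed only when any overlap was counted (0.849). In the 250 bp and 5 kb windows the share was higher in 4 of 6 libraries. With 4 or more libraries on 1 same base it was higher in only 3 of 6 (mean difference 0.436, exact permutation p = 0.4375). With 1 library left out the mean difference was 0.436 to 0.705. The mutant minus control share was 0.615 to 2.85 over 10 alternatives, 0.722 to 1.36 with 1 library left out, and its replicate block p was 0.25, the smallest that 3 pairs allow. Deviations of same-numbered control and mutant libraries over the 7 regions correlated at 0.205, -0.121 and 0.838, so the numbers were not taken to pair them. Depth is unknown, and most heights are a few steps, so a region without a peak is not shown to be unbound.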
